A study of Mus musculus with 8 samples.

Results

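The 10 genes described here, Cd34, Gata2, Erg, Procr, Hlf, Cd93, Tal1, Lyl1, Hhex and Mecom, are genes that blood stem and progenitor cells are known to use. They are 10 of the 18193 genes that could be read from the arrays. The probe sets that the array annotation assigns to exactly 1 of these symbols were taken, 19 in all, and the brightest of a gene's probe sets, by its mean over the arrays, stood for the gene. Gata2, Erg and Hlf had 2 probe sets each, Mecom 3 and Cd93 5, and the other genes 1 each.

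RNA from cultured mouse leukemia cells was hybridised to 8 Affymetrix arrays in 4 groups of 2. The cells had been transformed by the MLL-AF9 fusion protein, which joins a part of the methyltransferase MLL to AF9. The groups were cells with the hairpin shSirt1, aimed at the deacetylase gene Sirt1, after 21 days in 3 µM EPZ4777, and the same cells in DMSO, cells with the control hairpin shLUC, aimed at luciferase, after 6 days in 3 µM EPZ4777, and the same cells in DMSO. EPZ4777 inhibits DOT1L, the methyltransferase of histone H3 lysine 79. All cells carried MLL-AF9 and grew in IMDM with 15% serum and with SCF (20 ng/ml), IL-3 (10 ng/ml) and IL-6 (10 ng/ml), growth factors of progenitors and mast cells. The codes A1 and A5 (shSirt1) and A4 and D11 (shLUC) each name 1 array in EPZ4777 and 1 in DMSO. Time in culture is not labelled for the DMSO arrays. The labels pair each hairpin with its own time in the drug, so hairpin and time in EPZ4777 cannot be told apart. Whether replicate arrays hold RNA of separate cultures is not labelled either, so p-values reflect the spread of these samples alone, and that spread may be technical.

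All 11 genes listed for the labelled cell type, myeloid progenitors, among them the granule genes Mpo, Elane, Ctsg and Prtn3, were above the median gene on all 8 arrays. Sirt1, the target of the hairpin, read 8.85 (A1) and 9.73 (A5) log2 units in EPZ4777 and 8.70 (A1) and 9.54 (A5) in DMSO, against 9.44 to 9.83 on the 4 shLUC arrays. It was therefore not lower on the A5 arrays, and these cells are called cells labelled shSirt1. The A1 array in DMSO stood apart in the stromal genes Col3a1 (6.92, at most 3.13 elsewhere) and Dcn (7.27, at most 4.79 elsewhere). Across arrays the lower quartile of log2 intensity over all probe sets was 3.75 to 3.84 and the median 5.21 to 5.27. The number of arrays limits the precision of every value, and an exact test of 2 arrays against 2 cannot go below p = 0.333.

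Blood stem cells and early progenitors carry a set of surface proteins and transcription factors that recede as the cells mature into granulocytes and monocytes. Several of the factors, among them Gata2, Tal1, Lyl1 and Erg, bind regulatory DNA together with partners such as Runx1, Fli1 and Lmo2. MLL fusion proteins recruit DOT1L and keep parts of the progenitor expression pattern active in leukemic cells, and Erg, Mecom, Hlf and Tal1 are each known from rearrangements in human leukemia.

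The stretches upstream of 3 genes are shown because these genes read higher in EPZ4777 in all 4 codes and were above the lower quartile on every array. They come from RefSeq on mouse build GRCm38.p6, 5′ to 3′ on the gene's strand, and end where the annotated gene begins. Procr lies on the plus strand (158 bases, chr2:155750967-155751124), Erg on the minus strand (243 bases, chr16:95586601-95586843, the entry farthest upstream of 3) and Hhex on the plus strand (250 bases, chr19:37434591-37434840). Of the 10 genes 9 had an entry. Capitals mark matches to the ETS core GGAA on either strand (TTCC on the other).
Procr: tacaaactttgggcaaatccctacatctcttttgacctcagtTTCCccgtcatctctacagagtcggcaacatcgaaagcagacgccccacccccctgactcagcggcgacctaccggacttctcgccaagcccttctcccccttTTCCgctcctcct
Erg: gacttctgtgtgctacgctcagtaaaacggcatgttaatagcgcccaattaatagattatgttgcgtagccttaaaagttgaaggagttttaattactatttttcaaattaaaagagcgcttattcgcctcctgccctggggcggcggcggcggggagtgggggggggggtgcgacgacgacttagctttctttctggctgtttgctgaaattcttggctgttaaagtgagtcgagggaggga
Hhex: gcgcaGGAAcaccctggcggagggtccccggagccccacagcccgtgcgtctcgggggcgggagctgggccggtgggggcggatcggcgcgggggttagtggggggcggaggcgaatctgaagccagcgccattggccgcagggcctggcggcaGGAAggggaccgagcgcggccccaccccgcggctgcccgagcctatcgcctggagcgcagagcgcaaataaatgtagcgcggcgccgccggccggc
The ETS core is the short sequence that Erg and Fli1 bind. It matched 2 times upstream of Procr, 0 times upstream of Erg and 2 times upstream of Hhex. The first bases of all 32851 RefSeq promoters held it in 83.2% of windows of 158 bases, 92.9% of 243 bases and 93.4% of 250 bases. The GATA core GATAA, read as TTATC on the other strand, and the E-box CANNTG, bound by Gata2 and by Tal1 or Lyl1 with their partners, matched 0 times in the 3 windows. Among all promoters, windows of these lengths held GATAA in 16.3%, 22.2% and 22.6% and CANNTG in 51.1%, 65.4% and 66.2%. No 2 matches overlapped, and a match describes the letters only.

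Among the 10 genes, Procr was the 1 that rose with EPZ4777 in shLUC cells, and Cd93 was the 1 that was lower in EPZ4777 in cells labelled shSirt1 than in shLUC cells. Erg had the largest difference of the 10 with EPZ4777 in both hairpin arms, did not pass, and had codes that lay far apart. Hhex was higher with EPZ4777 in all 4 codes without passing, Cd34 lower in all 4. Gata2, Hlf, Tal1, Lyl1 and Mecom did not pass in any comparison.

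**Figure D1:**
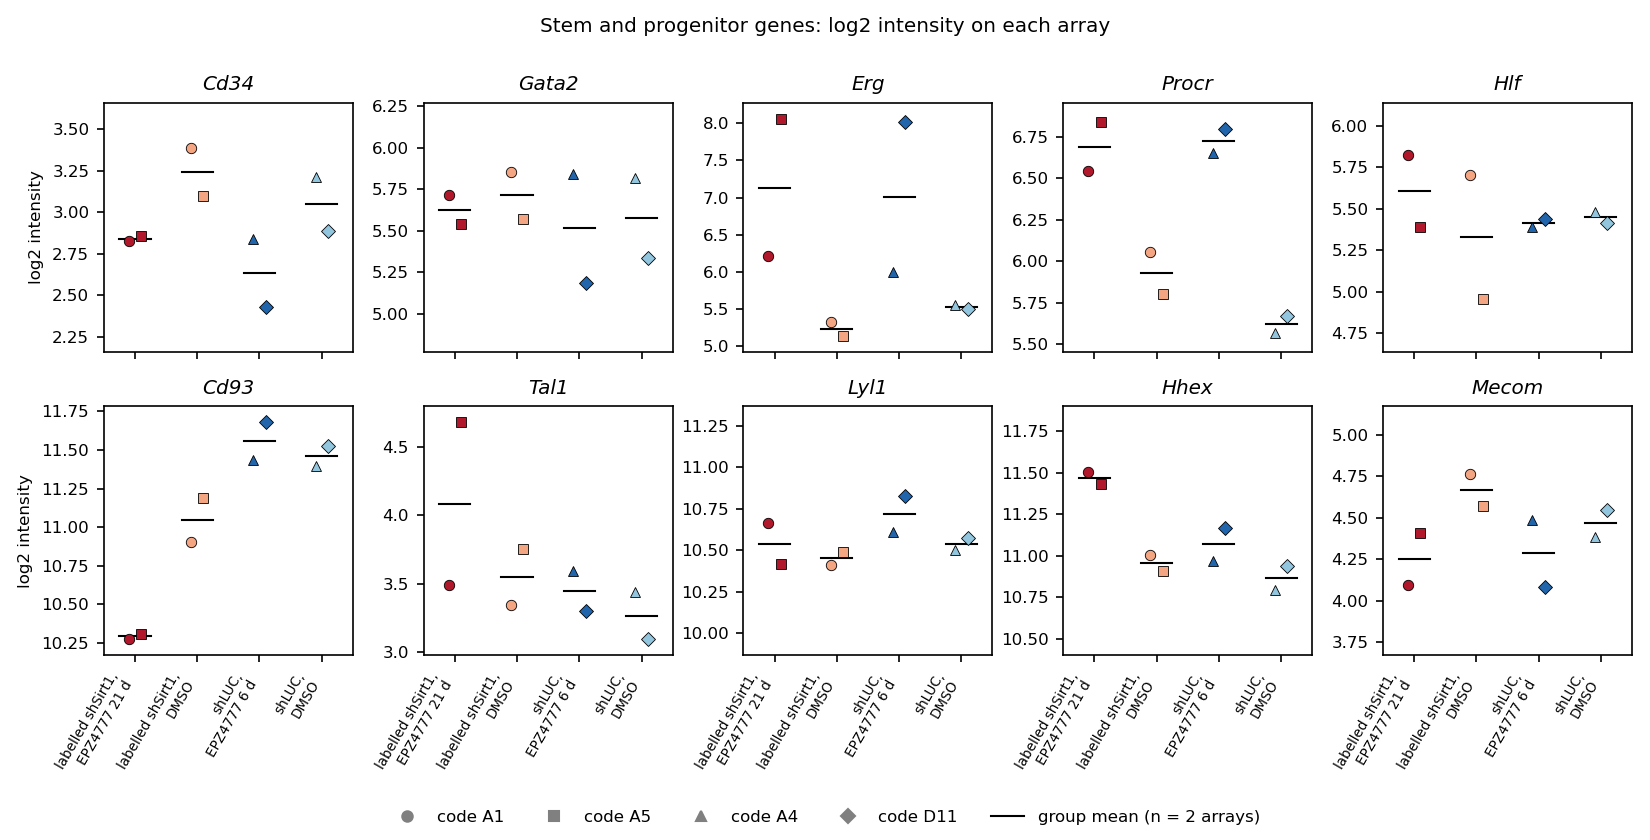
Each panel plots the log2 intensity (y axis) of the main probe set of 1 gene on each of the 8 arrays, with the 4 groups along the x axis, the marker shape giving the code and the bar the mean of 2 arrays. The panels have their own y ranges. Both EPZ4777 arrays of Procr lie above both DMSO arrays in each hairpin arm, the Erg arrays of A5 (8.06) and D11 (8.01) in EPZ4777 stand above the other 6, and Cd93 lies lowest on the 2 EPZ4777 arrays labelled shSirt1 (10.27 and 10.31).

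Procr encodes the endothelial protein C receptor, a surface protein that marks mouse blood stem cells. In cells labelled shSirt1 its probe set read 6.54 (A1) and 6.84 (A5) log2 units in EPZ4777 and 6.05 (A1) and 5.80 (A5) in DMSO. In shLUC cells it read 6.65 (A4) and 6.79 (D11) in EPZ4777 and 5.57 (A4) and 5.67 (D11) in DMSO. The EPZ4777 and DMSO arrays did not overlap in either arm, and the 2 codes of shLUC were close to each other. Procr rose 2.15-fold in shLUC cells, a log2 difference of 1.10 ± 0.15 with a 95% interval of 0.75 to 1.45 (limma adjusted p = 0.0285). Here and below ± gives the standard error of a difference, with n = 2 arrays in each group. In cells labelled shSirt1 the difference was 0.76 ± 0.15 (95% interval 0.42 to 1.11, limma adjusted p = 0.0952), which did not pass. The difference between these effects, labelled shSirt1 minus shLUC, was -0.34 ± 0.21 (95% interval -0.83 to 0.15, limma adjusted p = 0.812). The level in cells labelled shSirt1 minus that in shLUC cells was -0.03 ± 0.15 in EPZ4777 and 0.31 ± 0.15 in DMSO. The call was lost without D11 in EPZ4777 (limma adjusted p = 0.149), A4 in DMSO (0.220) or D11 in DMSO (0.197), and the difference lay between 1.03 and 1.17 over all alternatives. The _s_at suffix of its probe set marks probes that can match more than 1 transcript.

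Cd93 encodes a surface lectin-like receptor found on early progenitors, and on monocytes and endothelium too. Its main probe set read 10.27 (A1) and 10.31 (A5) log2 units in EPZ4777 in cells labelled shSirt1, and 10.90 (A1) and 11.19 (A5) in DMSO. In shLUC cells it read 11.44 (A4) and 11.68 (D11) in EPZ4777 and 11.40 (A4) and 11.53 (D11) in DMSO. The shLUC groups overlapped each other, whereas the 2 EPZ4777 arrays labelled shSirt1 were below the other 6. Between hairpins in EPZ4777 Cd93 was lower in cells labelled shSirt1, with a log2 difference of -1.27 ± 0.14 (limma adjusted p = 0.0341), 0.416 times the shLUC level, with a 95% interval of -1.60 to -0.93. The call was lost when only those 4 arrays were fitted (limma adjusted p = 0.0874) and without any 1 array of 6, where the adjusted p lay between 0.0873 and 0.156 and the difference between -1.39 and -1.15. Those 6 were the 4 EPZ4777 arrays and the 2 shLUC arrays in DMSO. In DMSO the difference between hairpins was -0.42 ± 0.14 (limma adjusted p = 0.882).

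With EPZ4777 against DMSO, Cd93 differed by -0.75 ± 0.14 in cells labelled shSirt1 (95% interval -1.09 to -0.42, limma adjusted p = 0.0897), lower in A1 (-0.63) and in A5 (-0.88). With the code as a replicate block this difference passed (limma adjusted p = 0.0452). In shLUC cells the difference was 0.10 ± 0.14 (95% interval -0.24 to 0.43, limma adjusted p = 0.780). The difference between the effects, labelled shSirt1 minus shLUC, was -0.85 ± 0.20 (limma adjusted p = 0.572). The 5 probe sets of Cd93 were all lower in EPZ4777 in cells labelled shSirt1 than in shLUC cells, by -0.50 to -1.34, and 2 of them passed when every probe set was tested by itself (the 2 brightest, limma adjusted p = 0.0310 for each). They did not have 1 sign with EPZ4777 in shLUC cells, where the third brightest read 6.48 (A4) and 6.85 (D11) in EPZ4777 and 7.21 (A4) and 7.23 (D11) in DMSO. That probe set differed by -0.56 ± 0.15 (limma adjusted p = 0.0763), the other 4 by -0.25 to 0.10.

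Monocyte and macrophage genes as a sum were lower in cells labelled shSirt1 than in shLUC cells, as Cd93 was. With EPZ4777 against DMSO the sum was higher in every code, mainly through the lysozyme gene Lyz2, while Cd93 was lower in A1 and A5. Taken singly, most genes of the list were lower with EPZ4777 in cells labelled shSirt1, as Cd93 was. The summed intensity of the 19 measured genes of that list was 8110 (A1) and 14879 (A5) in EPZ4777 in cells labelled shSirt1, against 21868 (A4) and 27565 (D11) in shLUC cells. In DMSO it was 4423 (A1) and 10458 (A5) in cells labelled shSirt1, against 14204 (A4) and 16118 (D11) in shLUC cells. With EPZ4777 against DMSO in cells labelled shSirt1, 12 of the 19 were lower, with a median of -0.17, and 2 passed as lower (Irf8 and Ccr2) and 0 as higher, while the lysozyme gene Lyz2, which makes up most of each EPZ4777 sum, read 12.56 (A1) and 13.60 (A5) in EPZ4777 and 10.72 (A1) and 12.47 (A5) in DMSO. Of the 19, 5 passed as lower in EPZ4777 in cells labelled shSirt1 than in shLUC cells and 0 as higher, among them the chemokine receptor Ccr2 (-2.70 ± 0.28, limma adjusted p = 0.0340) and the scavenger receptor Msr1 (-3.24 ± 0.36, limma adjusted p = 0.0341). The others that passed were Mmp12 (-3.84), C1qb (-3.77) and C1qa (-2.07). With EPZ4777 against DMSO in shLUC cells, 7 of the 19 passed as higher and 2 as lower. The largest of these differences were Mrc1 (4.19), Mmp12 (3.63), C1qb (3.33), Maf (2.97), Ly86 (-2.15) and Irf8 (-1.99), beside 0.10 for Cd93. Of these 19 genes, 0 to 2 lay below an array's lower quartile. In bulk RNA fewer cells of a type and less RNA per cell cannot be told apart, and the part of these cells in the Cd93 difference was not tested.

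**Figure D2:**
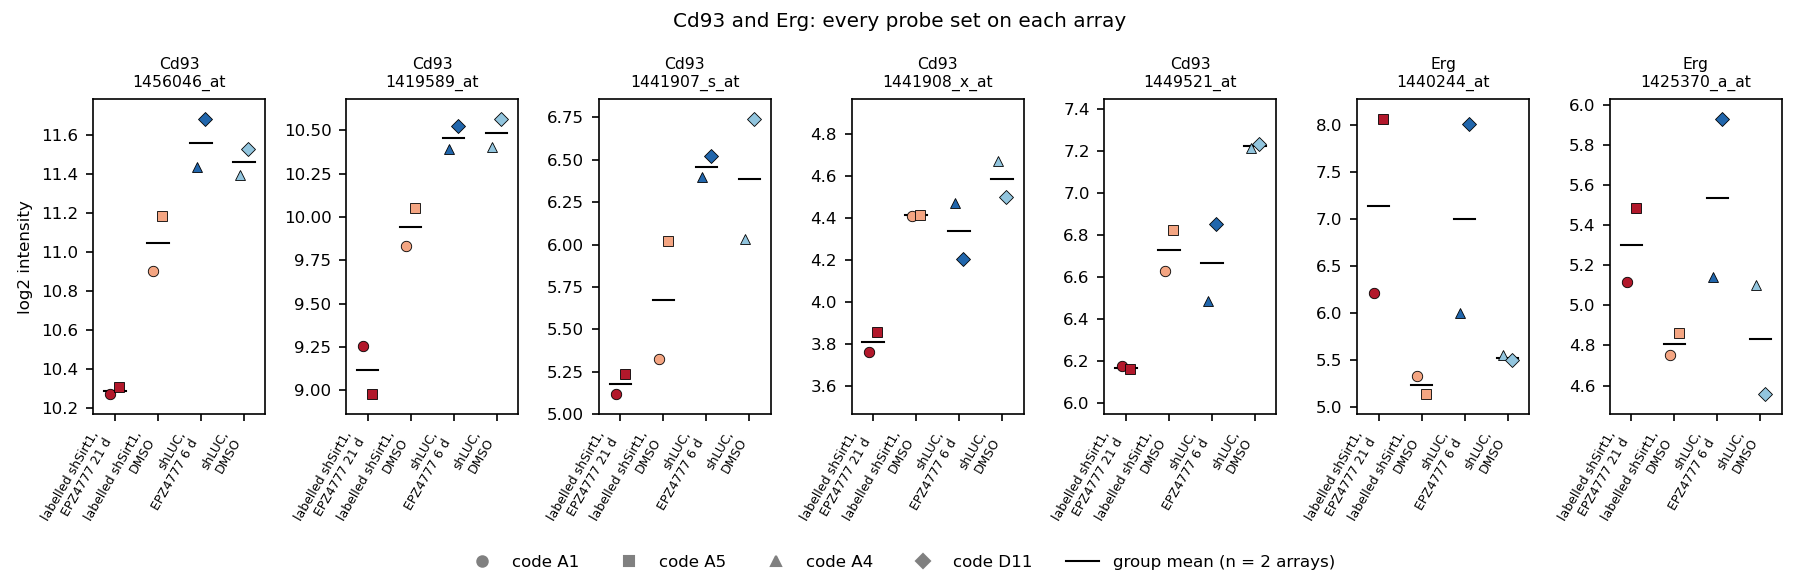
Log2 intensity (y axis) of the 5 probe sets of Cd93 and the 2 of Erg on each array, 1 panel per probe set, with the groups along the x axis, the marker shape giving the code and the bar the mean of 2 arrays. In all 5 Cd93 panels the EPZ4777 arrays labelled shSirt1 lie below the shLUC EPZ4777 arrays, and in both Erg panels the A5 and D11 arrays in EPZ4777 are the highest 2.

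Cd34 encodes a sialomucin of progenitor surfaces. Its 1 probe set read 2.83 (A1) and 2.85 (A5) log2 units in EPZ4777 and 3.39 (A1) and 3.10 (A5) in DMSO in cells labelled shSirt1. It read 2.84 (A4) and 2.43 (D11) in EPZ4777 and 3.21 (A4) and 2.89 (D11) in DMSO in shLUC cells. The EPZ4777 arrays were below the DMSO arrays in both arms, but all 8 values lay below the arrays' lower quartile, where the normalization compresses differences. The differences were -0.40 ± 0.18 in cells labelled shSirt1 (limma adjusted p = 0.349) and -0.42 ± 0.18 in shLUC cells (limma adjusted p = 0.253).

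Erg encodes an ETS factor that blood stem cells need. The brighter of its probe sets read 6.21 (A1) and 8.06 (A5) log2 units in EPZ4777 and 5.33 (A1) and 5.14 (A5) in DMSO in cells labelled shSirt1. The shLUC arrays read 6.00 (A4) and 8.01 (D11) in EPZ4777 and 5.55 (A4) and 5.50 (D11) in DMSO. Every EPZ4777 array was above every DMSO array, and within each arm 1 code was far above the other in EPZ4777 while the DMSO arrays lay close together. The SD of the 2 EPZ4777 arrays was 1.30 in cells labelled shSirt1 and 1.42 in shLUC cells, against 0.13 and 0.04 in DMSO. The difference was 1.90 ± 0.74 in cells labelled shSirt1 (95% interval 0.16 to 3.64, limma adjusted p = 0.287) and 1.48 ± 0.74 in shLUC cells (95% interval -0.26 to 3.22, limma adjusted p = 0.309). These were the 102nd and 174th highest signed differences of 18193 genes. A single array set the size: without A5 in EPZ4777 the difference in cells labelled shSirt1 was 0.98, and without A1 2.82; without D11 in EPZ4777 the difference in shLUC cells was 0.47, and without A4 2.49. The second probe set of Erg differed by 0.49 ± 0.29 in cells labelled shSirt1 (limma adjusted p = 0.465) and by 0.71 ± 0.29 in shLUC cells (limma adjusted p = 0.208), again with A5 (5.48) and D11 (5.93) above A1 (5.12) and A4 (5.14) in EPZ4777.

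The arrays on which Erg read highest were those with the most transcript of neutrophil maturation genes, such as Ltf and Camp, which encode granule proteins. The summed intensity of the 17 measured genes of that list in EPZ4777 was 74478 (A1) and 128049 (A5) in cells labelled shSirt1 and 77694 (A4) and 125774 (D11) in shLUC cells. In DMSO it was 12363 (A1) and 32757 (A5) in cells labelled shSirt1 and 29918 (A4) and 39791 (D11) in shLUC cells. The differences of all 17 with EPZ4777 were positive in both arms, and 0 of the 17 lay below the lower quartile of any array. In cells labelled shSirt1 0 passed (15 at an unadjusted limma p under 0.05, and 8 with the replicate block), and 3 passed in shLUC cells, 7 with the block. Those 3 were Cd177 (3.95), Lcn2 (3.07) and Fcnb (2.31). The part of maturing neutrophils in the Erg difference was not tested.

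Gata2, a zinc finger factor of stem cells and mast cell precursors, read 5.71 (A1) and 5.54 (A5) in EPZ4777 and 5.85 (A1) and 5.57 (A5) in DMSO in cells labelled shSirt1. In shLUC cells it read 5.84 (A4) and 5.19 (D11) in EPZ4777 and 5.82 (A4) and 5.33 (D11) in DMSO. The arrays overlapped between EPZ4777 and DMSO, and the 5 comparisons gave differences of -0.08 to 0.14. Its intervals with EPZ4777 ran from -0.68 to 0.51 in cells labelled shSirt1 and from -0.66 to 0.54 in shLUC cells.

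Tal1 and Lyl1 encode related basic helix-loop-helix factors that pair with E proteins. Tal1 read 3.49 (A1) and 4.68 (A5) in EPZ4777 and 3.34 (A1) and 3.75 (A5) in DMSO in cells labelled shSirt1, and 3.59 (A4) and 3.30 (D11) in EPZ4777 and 3.44 (A4) and 3.10 (D11) in DMSO in shLUC cells. It was below the lower quartile on 7 arrays, and A5 in EPZ4777 was the exception. Its differences with EPZ4777 were 0.54 ± 0.37 in cells labelled shSirt1 (limma adjusted p = 0.513) and 0.18 ± 0.37 in shLUC cells (limma adjusted p = 0.855). Lyl1 read 10.66 (A1) and 10.42 (A5) in EPZ4777 and 10.41 (A1) and 10.49 (A5) in DMSO in cells labelled shSirt1, and 10.61 (A4) and 10.83 (D11) in EPZ4777 and 10.50 (A4) and 10.58 (D11) in DMSO in shLUC cells. It varied least of the 10 genes, with an SD of 0.14 over the 8 arrays. The differences of Lyl1 with EPZ4777 were 0.09 ± 0.13 (95% interval -0.22 to 0.40) in cells labelled shSirt1 and 0.18 ± 0.13 (95% interval -0.13 to 0.49) in shLUC cells.

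Hhex, a homeobox factor of stem cells and B lymphoid progenitors, read 11.50 (A1) and 11.43 (A5) in EPZ4777 and 11.01 (A1) and 10.90 (A5) in DMSO in cells labelled shSirt1. The shLUC arrays read 10.97 (A4) and 11.17 (D11) in EPZ4777 and 10.80 (A4) and 10.94 (D11) in DMSO. The EPZ4777 arrays were above the DMSO arrays in both arms, and the 2 labelled shSirt1 were the highest of all 8. The differences were 0.51 ± 0.12 in cells labelled shSirt1 (95% interval 0.23 to 0.79, limma adjusted p = 0.135) and 0.20 ± 0.12 in shLUC cells (95% interval -0.08 to 0.48, limma adjusted p = 0.400). Between hairpins Hhex differed by 0.40 ± 0.12 in EPZ4777 (limma adjusted p = 0.210) and by 0.09 ± 0.12 in DMSO (limma adjusted p = 0.950), labelled shSirt1 minus shLUC.

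Hlf encodes a PAR bZIP factor of quiescent stem cells. It read 5.82 (A1) and 5.39 (A5) in EPZ4777 and 5.70 (A1) and 4.95 (A5) in DMSO in cells labelled shSirt1, and 5.39 (A4) and 5.44 (D11) in EPZ4777 and 5.48 (A4) and 5.41 (D11) in DMSO in shLUC cells. The groups overlapped, and the differences with EPZ4777 were 0.28 ± 0.25 in cells labelled shSirt1 and -0.03 ± 0.25 in shLUC cells. The second probe set of Hlf read 5.86 (A1) and 4.86 (A5) in EPZ4777 and 4.91 (A1) and 4.16 (A5) in DMSO in cells labelled shSirt1, a difference of 0.82 ± 0.40 (limma adjusted p = 0.399). In shLUC cells it read 4.35 (A4) and 5.11 (D11) in EPZ4777 and 4.47 (A4) and 4.23 (D11) in DMSO, a difference of 0.38 ± 0.40 (limma adjusted p = 0.665).

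Mecom encodes the zinc finger factor Evi1 and its longer forms. It read 4.09 (A1) and 4.41 (A5) in EPZ4777 and 4.76 (A1) and 4.57 (A5) in DMSO in cells labelled shSirt1, and 4.49 (A4) and 4.08 (D11) in EPZ4777 and 4.38 (A4) and 4.55 (D11) in DMSO in shLUC cells. All 8 values lay below the arrays' median, and the groups overlapped in shLUC cells. The differences with EPZ4777 were -0.41 ± 0.18 in cells labelled shSirt1 (limma adjusted p = 0.323) and -0.18 ± 0.18 in shLUC cells (limma adjusted p = 0.647). Its other 2 probe sets read between 2.30 and 3.91.

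**Figure D3:**
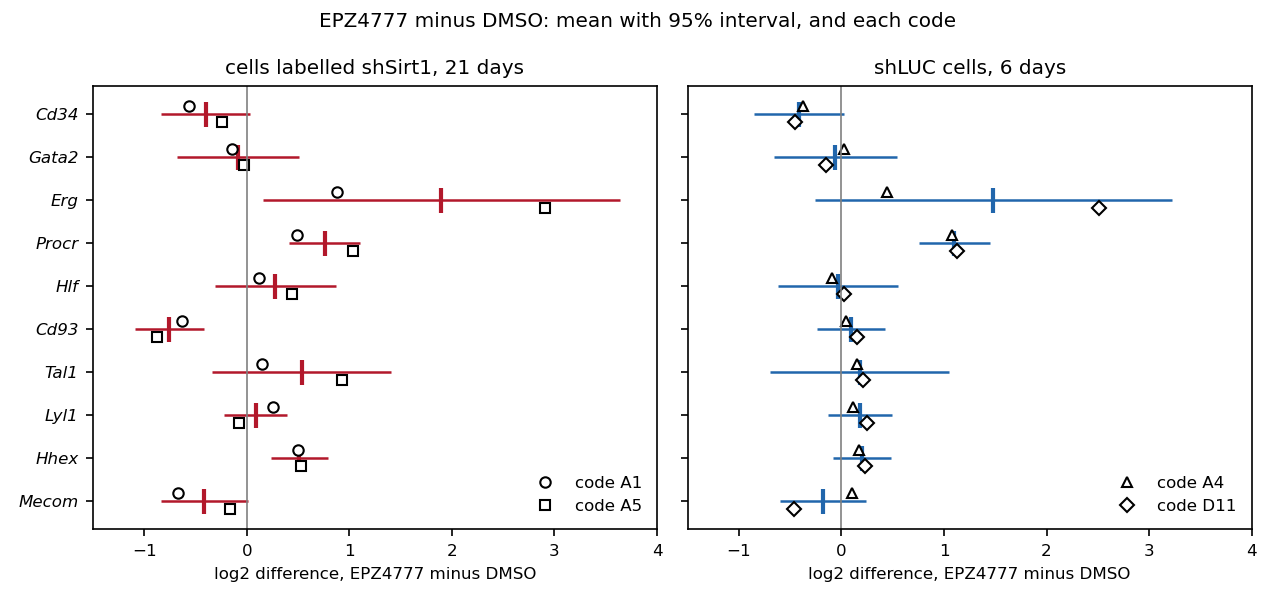
Log2 difference, EPZ4777 minus DMSO (x axis), of each gene (y axis) in cells labelled shSirt1 (left) and shLUC cells (right). Coloured ticks and lines are the mean and its 95% interval, and open markers the 2 codes. Procr lies to the right of 0 in all 4 codes (0.49 to 1.12), Cd93 to the left in A1 and A5, and the 2 Erg codes of each arm lie far apart.

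Counted together, 1 of the 10 genes passed with EPZ4777 in shLUC cells (1 higher, 0 lower), where 3.98% of all genes passed. In cells labelled shSirt1 0 passed, where 0.396% of all genes did. There 4 of the 10 (Erg, Procr, Cd93 and Hhex) had an unadjusted limma p under 0.05, as did 2876 of all 18193 genes. At that threshold shLUC cells had 1 of the 10 (Procr) and 3945 of all genes. With the replicate block 1 gene passed in each arm, Cd93 with the label shSirt1 and Procr with shLUC, beside 2.22% of all genes with the label shSirt1 and 7.23% with shLUC. For the difference between the effects 0 of the 10 passed beside 0% of all genes, and 0 of the 10 with the block. There 1 of the 10 (Cd93) had an unadjusted limma p under 0.05, beside 1221 of all genes. Between hairpins in DMSO 0 of the 10 passed beside 0%, with 1 (Cd93) at an unadjusted limma p under 0.05, beside 985 of all genes. Between hairpins in EPZ4777 1 of the 10 passed, beside 0.308% of all genes. An unadjusted limma p under 0.05 was found there for 2 (Cd93 and Hhex), beside 2427 of all genes. The counts over all genes at an unadjusted p also stand beside those given for the gene lists. With 10 genes a single call is 1 count, and the share is read no further than that.

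The sign of the EPZ4777 difference was the same in all 4 codes for 5 of the 10 genes (Erg, Procr, Tal1 and Hhex higher, Cd34 lower). The same held for 38.3% of all genes. The median log2 difference of the 10 with EPZ4777 was 0.18 in cells labelled shSirt1 and 0.14 in shLUC cells, beside 0.01 and 0.00 for all genes in those cells. The range was -0.75 to 1.90 in cells labelled shSirt1 and -0.42 to 1.48 in shLUC cells. Over the 8 arrays Erg and Procr had the highest correlation of any pair of the 10 (r = 0.82), Cd34 and Lyl1 the lowest (r = -0.83). These r describe 8 arrays that fall into 4 groups. Cd34 lay below the lower quartile on all 8, and Lyl1 varied least of the 10 (SD 0.14).

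Genes with profiles most like 3 of the 10, those with an SD of 0.5 or more, were sought over the 8 arrays among 942 genes with an SD of 0.5 or more and a mean of at least 6. For Erg these were Itgb2l (r = 0.982), Rap1gap2 (r = 0.980) and Reck (r = 0.976). Itgb2l, a neutrophil integrin subunit on the maturation list, read 7.15 (A1) and 9.32 (A5) in EPZ4777 and 5.47 (A1) and 5.86 (A5) in DMSO in cells labelled shSirt1. For Procr they were Syne2 (r = 0.973), Tmem71 (r = 0.972) and Mogat2 (r = 0.969), and for Cd93 Psap (r = 0.986), Tifa (r = 0.980) and Wfdc17 (r = 0.978). Psap, which encodes a precursor of lysosomal activator proteins, read 10.29 (A1) and 10.26 (A5) in cells labelled shSirt1 in EPZ4777, against 12.08 (A4) and 12.27 (D11) in shLUC cells in EPZ4777.

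Partners that bind DNA with these factors were measured as a list of 14 genes. With EPZ4777 in shLUC cells 2 rose and 0 fell. Runx1, a core binding factor, read 9.75 (A4) and 9.84 (D11) in EPZ4777 and 8.71 (A4) and 8.59 (D11) in DMSO, and rose by 1.15 ± 0.11 (limma adjusted p = 0.0244), with the same sign in all 6 of its probe sets. Fli1, the ETS factor closest to Erg, read 11.87 (A4) and 11.99 (D11) in EPZ4777 and 11.35 (A4) and 11.29 (D11) in DMSO, and rose by 0.61 ± 0.10 (limma adjusted p = 0.0347). In cells labelled shSirt1 the differences were 0.64 for Runx1 and 0.29 for Fli1, and 0 of the 14 passed (7 at an unadjusted limma p under 0.05, 0 with the block). Of the 14, 0 passed in the other 3 comparisons too, with 1 at an unadjusted limma p under 0.05 for the difference between the effects, 1 between hairpins in DMSO and 3 between hairpins in EPZ4777. The median difference with EPZ4777 over the 14 was 0.11 in cells labelled shSirt1 and -0.07 in shLUC cells. Lmo2, the bridging protein of Tal1 complexes, differed by 0.12 ± 0.12 in cells labelled shSirt1 and -0.04 ± 0.12 in shLUC cells, and the E protein gene Tcf3 by -0.38 ± 0.14 and -0.47 ± 0.14 in those cells. Neither gene passed.

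**Figure D4:**
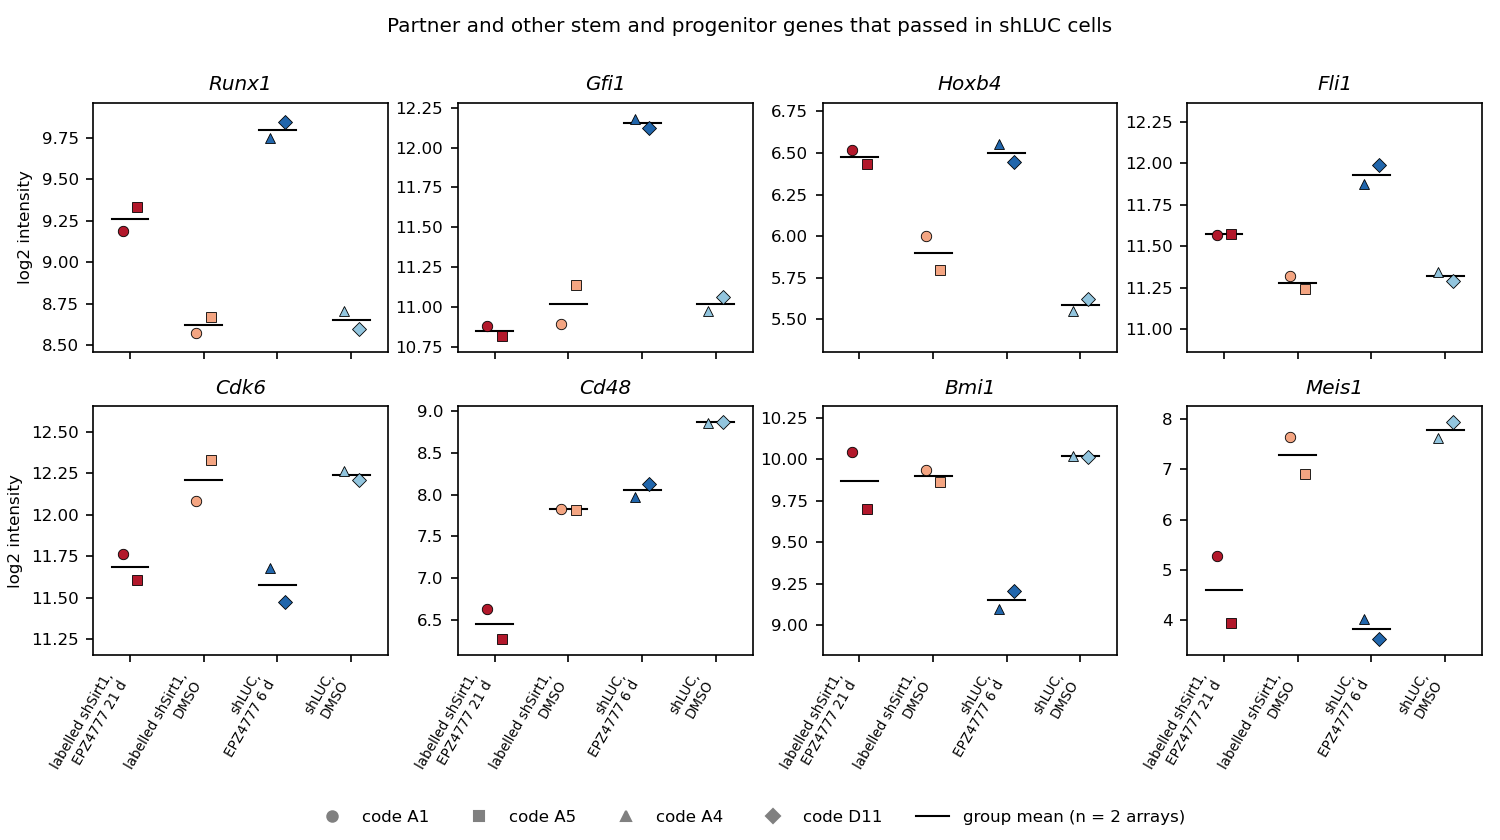
Log2 intensity (y axis) of 8 further genes that passed with EPZ4777 in shLUC cells, 1 panel per gene, with the groups along the x axis, the marker shape giving the code and the bar the mean of 2 arrays. Runx1, Gfi1, Hoxb4 and Fli1 are higher and Cdk6, Cd48, Bmi1 and Meis1 lower on both shLUC EPZ4777 arrays than on both shLUC DMSO arrays, and Gfi1 (10.88 and 10.82) and Bmi1 (10.04 and 9.70) on the EPZ4777 arrays labelled shSirt1 stand nearer to the DMSO arrays.

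Other stem and progenitor genes were measured as a list of 30, of which 27 had a row. With EPZ4777 in shLUC cells 2 rose, the repressor gene Gfi1 (1.13 ± 0.12, limma adjusted p = 0.0244) and the homeobox gene Hoxb4 (0.91 ± 0.12, limma adjusted p = 0.0261). On the same arrays 4 fell: Meis1, a cofactor of HOX proteins and target of MLL fusions (-3.96 ± 0.44, limma adjusted p = 0.0244), the Polycomb gene Bmi1 (-0.86 ± 0.14, limma adjusted p = 0.0326), the surface gene Cd48 (-0.81 ± 0.14, limma adjusted p = 0.0371) and the cell cycle kinase gene Cdk6 (-0.66 ± 0.13, limma adjusted p = 0.0473). With the replicate block Cdk6 did not pass (limma adjusted p = 0.0515), whereas Prom1 (0.86, limma adjusted p = 0.0393) passed as higher and Sox4 (-1.26, limma adjusted p = 0.0394) as lower. In cells labelled shSirt1 1 of the 27 fell with EPZ4777, Cd48 (-1.37 ± 0.14, limma adjusted p = 0.0385), and 0 rose. With the replicate block 2 passed as lower there, Cd48 and Meis1 (-2.68, limma adjusted p = 0.0146, against 0.0694 without the block), and 2 as higher, Prom1 (1.46, limma adjusted p = 0.0225) and Mycn (0.99, limma adjusted p = 0.0385). Cd48, absent from the surface of long-term stem cells in mice, and Gfi1 were lower in EPZ4777 in cells labelled shSirt1 than in shLUC cells. The differences were -1.59 ± 0.14 and -1.30 ± 0.12 (limma adjusted p = 0.0193 for each). In DMSO they were -1.03 ± 0.14 for Cd48 (limma adjusted p = 0.796) and -0.0025 ± 0.12 for Gfi1 (limma adjusted p = 0.997). Of the 27, 0 passed for the difference between the effects and 0 between hairpins in DMSO, with 5 at an unadjusted limma p under 0.05 in each. The median with EPZ4777 over the 27 was -0.09 in cells labelled shSirt1 and -0.07 in shLUC cells. Kit and Flt3, receptors of progenitors, did not pass, with 0.48 ± 0.26 and -0.24 ± 0.22 in cells labelled shSirt1 and 0.49 ± 0.26 and -0.16 ± 0.22 in shLUC cells.

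Endothelium, mast cells, megakaryocytes and erythroid cells also express members of the set. The 12 endothelial genes summed to 565 (A1) and 541 (A5) in EPZ4777 and 698 (A1) and 514 (A5) in DMSO in cells labelled shSirt1, and to 662 (A4) and 587 (D11) in EPZ4777 and 640 (A4) and 601 (D11) in DMSO in shLUC cells. Of these, 2 to 5 lay below an array's lower quartile. The defining gene Cdh5 read 4.67 on the A1 array in DMSO, which also stood apart in stromal genes, and 3.60 to 3.95 elsewhere. The 10 megakaryocyte genes summed to 2397 (A1) and 2776 (A5) in EPZ4777 and 1920 (A1) and 1878 (A5) in DMSO in cells labelled shSirt1, and to 3091 (A4) and 3481 (D11) in EPZ4777 and 1681 (A4) and 1764 (D11) in DMSO in shLUC cells. Most of the change in this sum came from Pf4, a platelet chemokine, and Nfe2, a factor that neutrophils express too. Pf4 rose in shLUC cells (2.71 ± 0.19, limma adjusted p = 0.00979), the other 9 did not pass there, and 0 passed in cells labelled shSirt1 (3 at an unadjusted limma p under 0.05, 1 with the block). The list's median difference was 0.20 in cells labelled shSirt1 and 0.18 in shLUC cells. The 10 mast cell and basophil genes summed to 1068 (A1) and 1462 (A5) in EPZ4777 and 735 (A1) and 705 (A5) in DMSO in cells labelled shSirt1, and to 884 (A4) and 1021 (D11) in EPZ4777 and 676 (A4) and 873 (D11) in DMSO in shLUC cells. Of the 9 erythroid genes 0 passed with EPZ4777 in either arm, with 1 at an unadjusted limma p under 0.05 in cells labelled shSirt1 and 0 in shLUC cells. Of the 12 stromal genes 1, Acta2, passed as higher in both arms. The part of these cell types in the differences of the 10 genes was not tested.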

How the data were processed

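The authors deposited intensity values. RMA made them, per the submitters' processing notes, with a version not given in the sources used here. The deposited intensity was taken as linear because it reaches 24500. RMA corrects background, normalizes between arrays and summarises probes, and it compresses differences of dim probe sets.

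Log2 of each intensity was taken with no pseudocount or filter. Of 45101 probe sets 64 were controls, 34945 had 1 gene symbol, 932 had several and 9160 were not listed in the annotation. The brightest probe set per gene gave 18193 genes. The test was limma 3.58.1 (R 4.3.3), lmFit and eBayes on 4 group means over 8 arrays with 4 residual degrees of freedom, two-sided, adjusted by Benjamini-Hochberg over all genes, with a threshold of 0.05, for 5 comparisons.

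The codes are shared by EPZ4777 and DMSO arrays in the titles, and deviations from group means correlated within codes at 0.378 for shSirt1 and 0.293 for shLUC. The code was therefore also fitted as a replicate block, with 2 residual degrees of freedom. Since each code has 1 hairpin, the block can be fitted only where EPZ4777 is set against DMSO. Other alternatives were other normalizations, probe set rules, a filter, variance models, the 4 arrays alone, a threshold of 0.1 and each array left out.

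The 10 genes and the gene lists were chosen with earlier results of these data known. All 10 are given whatever their values. Of the lists, genes past the threshold without the block are named, up to 6 per list and comparison. Genes most like one of the 10 are the 3 with the highest r. Kit, Flt3, Lmo2, Tcf3, Cdh5 and the probe sets singled out were picked after their values were seen. Promoters come from RefSeq.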

Additional observations from a re-analysis of the deposited data

Results flagged for a closer look

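Cd93 is given because its differences with EPZ4777 had opposite signs in the hairpin arms, although neither passed without the replicate block. Both codes of cells labelled shSirt1 were lower (-0.63 in A1 and -0.88 in A5). Both shLUC codes were near 0 (0.04 in A4 and 0.15 in D11), and the shLUC sign was not stable: it was -0.13 with the mean of the gene's probe sets and -0.03 without D11 in EPZ4777, and 3 of the 5 probe sets were lower. The difference between the effects, labelled shSirt1 minus shLUC, was -0.85 ± 0.20 on the log2 scale (standard error, limma adjusted p = 0.572), so it did not pass after adjustment, and it ranged between -0.99 and -0.52 over 16 alternatives with adjusted p of 0.295 to 0.998. The probe sets did not share it evenly: in the other 4 it was -0.80, -0.57, -0.36 and 0.00. The arms also differ in time in the drug, 21 days against 6 days, so hairpin and time cannot be told apart.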

How the results depend on the processing

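Of the 10 genes' differences in the 5 comparisons, none reversed as a called value. Outside the fits that left out an array, 385 kept their direction and side of the threshold, 6 uncalled ones turned sign, 3 became calls and 1 call was lost. Leaving out 1 array gave 358, 33, 0 and 9. With the replicate block 1 of the 10 genes passed with EPZ4777 in cells labelled shSirt1 (Cd93), and at an adjusted p under 0.1 2 did (Cd93 and Procr). With only the 4 EPZ4777 arrays, 0 passed between hairpins in EPZ4777. The block changed no other call of the 10. Leaving out 1 array gave 0 to 1 of the 10 with EPZ4777 in shLUC cells and 0 to 1 between hairpins in EPZ4777.

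Over all genes with EPZ4777 in cells labelled shSirt1, 404 passed with the block, 0 with only the 4 arrays and 263 at 0.1 (0 to 205 with 1 array left out). In shLUC cells 1316 passed with the block, 1188 of probe sets taken singly, 1424 among genes above the median level, 402 with only the 4 arrays and 1958 at 0.1 (0 to 1031). Between hairpins in EPZ4777 14 passed with only the 4 arrays and 245 at 0.1 (0 to 73). For the difference between the effects 3 passed with the block (0 to 89), and between hairpins in DMSO 0 to 155 with 1 array left out. The causes were not tested. A filter at the median gene mean removed the dim genes, so those under it have no value there, and no blocked fit between hairpins was possible because each code has 1 hairpin. Dim signal limits Cd34, Tal1 and Mecom.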
